A study of Mus musculus with 15 samples.

Results

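Genes of store calcium and inositol trisphosphate (IP3) signalling were followed in D1 cells, a long-term, growth-factor-dependent dendritic cell (DC) line from the spleen of C57BL/6 mice, stimulated through dectin-1. The set was chosen by name, with earlier results of these data known, so counts of its members beside shares of all genes are descriptions. It holds 10 genes (Plcg2, Itpkb, Itpr1, Itpr2, Itpr3, Stim1, Stim2, Orai1, Atp2b1 and Atp2a2). Of these, 9 were measured among 19937 genes tested, each by exactly 1 probe set annotated with that symbol alone. The remaining gene, the IP3 receptor Itpr1, is not analysed here. Each of 5 groups had 3 arrays: D1 cells given curdlan with FK506 for 4 h, curdlan for 4 h, curdlan with FK506 for 2 h, curdlan for 2 h, and nontreated D1 cells. Curdlan, a bacterial beta-glucan that binds dectin-1, was used at 10 µg/ml, and FK506 blocks calcineurin, the calcium-dependent phosphatase that lets NFAT enter the nucleus. FK506 without curdlan is not analysed here, so FK506 effects were read in the presence of curdlan, and the same 3 nontreated arrays served both times. D1 is 1 cell line, and the labels call the arrays biological replicates without saying how the cultures were separated, so p values measure the spread between these arrays. Of 10 DC markers, 8 lay above the median gene, with Itgax, Itgam, H2-Ab1 and Cd74 in the top percentiles (98.7 to 99.9) and Flt3 (34.8) and Ly75 (23.2) in the lower part. Of the macrophage markers, 3 of the 4 measured also lay above the median gene. Markers of T, B and NK cells, neutrophils and mast cells had 0 members above the median gene, and fibroblast markers had 3 of 5 there.

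In this pathway the phospholipase PLCγ2 (Plcg2), which acts below dectin-1 and the kinase Syk, cuts a membrane lipid into IP3 and diacylglycerol. IP3 opens the IP3 receptors (Itpr genes) of the endoplasmic reticulum and lets stored calcium out. Emptying of the store is sensed by STIM1 and STIM2, which open the plasma membrane channel ORAI1, and the calcium that enters activates calmodulin and calcineurin. IP3 is removed by IP3 kinases such as ITPKB, which add a phosphate, and by 5-phosphatases, while SERCA2 (Atp2a2) pumps calcium back into the store and PMCA1 (Atp2b1) pumps it out of the cell.

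Sequences just before the transcription start are shown for 4 of these genes, as the 4 with the widest ranges over the 15 arrays. They come from RefSeq, build GRCm38.p6, as 250 bases that end before the annotated start, written 5′ to 3′ on the strand of the gene. Capitals mark a match to the kappa-B consensus on either strand. The windows are chr1:180330226-180330475 (plus strand) for Itpkb, chr6:146502224-146502473 (minus strand) for Itpr2, chr10:98914392-98914641 (plus strand), the first of 2 start sites listed, for Atp2b1, and chr17:27057054-27057303 (plus strand) for Itpr3.
Itpkb: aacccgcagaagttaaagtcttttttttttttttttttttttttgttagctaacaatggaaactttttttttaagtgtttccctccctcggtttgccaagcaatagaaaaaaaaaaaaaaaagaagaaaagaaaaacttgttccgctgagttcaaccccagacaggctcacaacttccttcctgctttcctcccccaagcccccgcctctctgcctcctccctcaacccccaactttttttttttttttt
Itpr2: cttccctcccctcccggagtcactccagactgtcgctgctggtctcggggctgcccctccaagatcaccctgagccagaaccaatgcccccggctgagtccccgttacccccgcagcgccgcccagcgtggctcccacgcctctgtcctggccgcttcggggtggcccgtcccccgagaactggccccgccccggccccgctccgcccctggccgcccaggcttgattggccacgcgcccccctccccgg
Atp2b1: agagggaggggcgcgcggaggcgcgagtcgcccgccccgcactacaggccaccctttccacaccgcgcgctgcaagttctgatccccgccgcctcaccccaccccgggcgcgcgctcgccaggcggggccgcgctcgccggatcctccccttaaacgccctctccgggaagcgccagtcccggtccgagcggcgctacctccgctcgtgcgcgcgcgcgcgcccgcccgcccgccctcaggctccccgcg
Itpr3: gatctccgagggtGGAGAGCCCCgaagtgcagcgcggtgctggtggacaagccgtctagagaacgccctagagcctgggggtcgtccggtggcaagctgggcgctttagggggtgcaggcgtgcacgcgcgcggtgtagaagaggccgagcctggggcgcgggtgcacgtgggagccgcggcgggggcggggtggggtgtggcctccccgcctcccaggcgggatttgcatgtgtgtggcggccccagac
A window was listed for 8 of the 9 measured genes, and for 9 start sites in all, and both strands were searched from 250 bases before to 50 bases after each start. The NFAT core GGAAAA was found in 0 of 9 windows, against 23.4% of all 32851 mouse windows of that length. The AP-1 motif TGANTCA was likewise found in 0 of 9 (7.81% of all windows). The kappa-B consensus was found in 2 of 9, those of Itpr3 and Stim2 (8.46% of all windows). A match is a description of letters in this window and no evidence of binding. The lack of a match says nothing about sites outside this window.

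Expression values are RMA levels on a log2 scale, and differences are log2 fold changes with the first-named group on top. Calls of higher or lower needed an adjusted p under 0.05 (limma, Benjamini-Hochberg over all genes) and a difference of 1.5-fold or more (log2 0.585). Groups of 3 arrays that did not overlap were common over all genes. With curdlan at 4 h, 17.1% of all genes lay wholly above nontreated cells and 33.5% wholly below. At 2 h these shares were 9.14% and 15.9%. With FK506 against curdlan they were 21.7% and 14.5% at 4 h, and 16.2% and 12.4% at 2 h. For curdlan at 4 h against 2 h they were 18.4% and 26.0%. All 9 genes lay above the lower quartile of gene means (5.28). Itpkb was the dimmest, at 7.29 over all arrays (percentile 55.5), and Atp2a2 the brightest probe set, at 12.27 (percentile 99.3), although levels of different probe sets cannot be ranked against each other as amounts of RNA. The range over the 15 arrays was 1.65 for Itpkb, 0.76 for Itpr2, 0.75 for Atp2b1 and 0.63 for Itpr3. It lay between 0.26 and 0.44 for the other 5 genes.

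**Figure D1:**
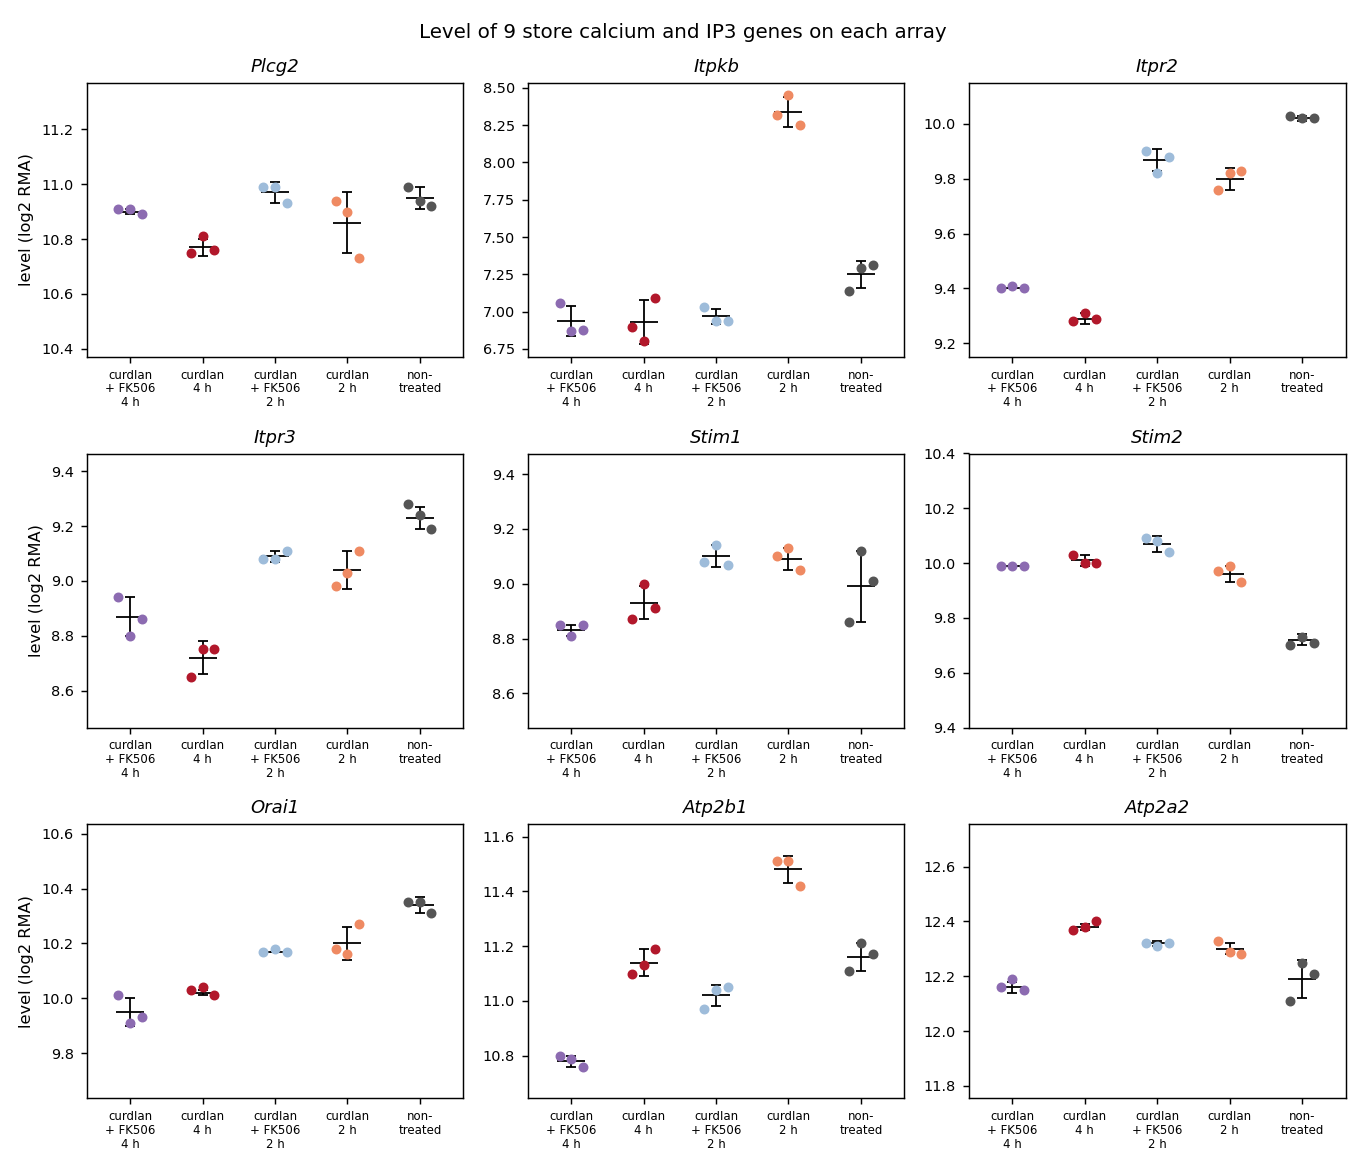
Level of each of the 9 measured genes (log2 RMA, vertical axis, scaled to each gene) on every array of the 5 groups. Points are arrays, and the horizontal bar with whiskers gives the mean and SD of 3 arrays. Itpkb stood above 8 only in the curdlan 2 h group, and Itpr2 lay lowest in the 4 h groups.

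Itpkb, the kinase that turns IP3 into inositol tetrakisphosphate, had a short rise with curdlan that was not seen with FK506. Its levels were 8.32, 8.45 and 8.25 in the 3 curdlan 2 h arrays, against 7.14, 7.29 and 7.31 in nontreated cells. All 3 curdlan arrays lay above every nontreated array. The difference was a 2.13-fold rise (log2 1.09 ± 0.08, SE, 3 arrays per group, limma adjusted p = 2.69e-07). Itpkb was the 1 of 9 genes called higher at 2 h, where 2.2% of all genes were called higher, and 0 of 9 were called lower (1.4% of all genes). An unadjusted limma p under 0.05, in either direction, was found for 7 of the 9 and for 28.1% of all genes.

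With curdlan and FK506 for 2 h, Itpkb levels were 7.03, 6.94 and 6.94, against the 8.32, 8.45 and 8.25 with curdlan alone. These FK506 arrays lay below all curdlan 2 h arrays. Itpkb fell by 1.37 ± 0.08 on the log2 scale relative to curdlan alone (2.59-fold, limma adjusted p = 1.08e-07), the 1 of 9 genes called lower in this comparison (0.762% of all genes called lower, 0.361% called higher). Relative to nontreated cells, the level with curdlan and FK506 at 2 h differed by −0.28 ± 0.08 (limma adjusted p = 0.0291), under the 1.5-fold threshold. With array medians set equal it was −0.17 (adjusted p = 0.352), and the adjusted p stayed under 0.05 in 19 of 26 alternatives.

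At 4 h the levels of Itpkb were 7.06, 6.87 and 6.88 with curdlan and FK506, and 6.90, 6.80 and 7.09 with curdlan alone. These groups overlapped. The FK506 difference was 0.01 (95% interval −0.16 to 0.19, limma adjusted p = 0.967), so that a 1.5-fold difference in either direction lay outside the interval. Curdlan 4 h arrays lay below curdlan 2 h arrays by 1.42 ± 0.08 (2.67-fold, limma adjusted p = 2.69e-08), and Itpkb was the 1 of 9 genes called lower between these times (1.3% of all genes, with 2.79% called higher and 0 of 9 members). Set against nontreated cells, the 4 h difference was −0.32 ± 0.08 (limma adjusted p = 0.00601) with curdlan and −0.31 ± 0.08 (limma adjusted p = 0.0104) with curdlan and FK506. Both were under the fold threshold, and with the array medians set equal they were −0.22 and −0.24, with adjusted p values of 0.152 and 0.167. The FK506 effect at 4 h minus that at 2 h was 1.38 ± 0.11 (limma adjusted p = 1.61e-05), and 0.171% of all genes were called in that direction. Among the 5 groups, Itpkb was thus highest with curdlan at 2 h, next in nontreated cells, and lowest in the other 3 groups, whose means of 6.94, 6.93 and 6.97 did not differ beyond their spread.

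The 3 genes whose levels over the 15 arrays most resembled those of Itpkb were Fhdc1, Jarid2 and Esyt3 (Pearson r 0.959, 0.951 and 0.948). These values describe 15 arrays in 5 groups and carry the differences between groups. Jarid2, which encodes a partner of the Polycomb complex PRC2, differed by 0.91 between curdlan 2 h and nontreated cells and by −1.42 between curdlan with FK506 and curdlan at 2 h. Esyt3, which encodes an extended synaptotagmin, had differences of 1.29 and −1.28 in those comparisons, and Fhdc1, a formin family gene, 0.49 and −0.63. Within the set, Atp2b1 was the gene most like Itpkb (r 0.85 over the same arrays).

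Both measured IP3 receptors had lower levels with curdlan, more so at 4 h, and Itpr2 passed the test. Itpr2 levels were 9.28, 9.31 and 9.29 in curdlan 4 h arrays, against 10.03, 10.02 and 10.02 in nontreated arrays. Replicates lay close together within each of these groups, which did not overlap. Itpr2 fell by 0.73 ± 0.04 on the log2 scale (1.66-fold, limma adjusted p = 1.92e-09). It was the 1 of 9 genes called lower at 4 h, where 4.15% of all genes were called lower, and 0 of 9 were called higher (5.05% of all genes). An unadjusted limma p under 0.05 was found for 7 of the 9 and for 48.4% of all genes. The median of all genes stood at −0.12 in this comparison, and that of the 9 genes at −0.17. Relative to that shift, with array medians set equal, the Itpr2 difference was −0.62 and passed the test. The same setting called 1300 of all genes higher and 545 lower at 4 h, against 1007 and 828 in the values as deposited. With the mean level of probe sets without a gene symbol as a covariate, the counts moved the other way, to 807 higher and 1250 lower, and the Itpr2 difference was −0.72.

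At 2 h the Itpr2 levels with curdlan were 9.76, 9.82 and 9.83, between those of the 4 h and the nontreated arrays. The 2 h difference from nontreated cells was −0.22 ± 0.04 (limma adjusted p = 0.000548), under the fold threshold, and curdlan 4 h differed from curdlan 2 h by −0.51 ± 0.04 (limma adjusted p = 2e-07), also under it. The FK506 differences of Itpr2 did not pass the test. It stood at 9.40, 9.41 and 9.40 with curdlan and FK506 at 4 h and at 9.90, 9.82 and 9.88 at 2 h. The FK506 difference was 0.11 at 4 h (95% interval 0.03 to 0.19, limma adjusted p = 0.07) and 0.06 at 2 h (95% interval −0.02 to 0.14, limma adjusted p = 0.364). Relative to nontreated cells, Itpr2 fell by 0.62 ± 0.04 with curdlan and FK506 at 4 h (1.54-fold, limma adjusted p = 1.95e-08), the 1 of 9 genes called there (2.43% of all genes called lower, 2.95% higher). With array medians set equal this difference was −0.54 and under the fold threshold.

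Itpr3, the other IP3 receptor measured, had the same order of groups at smaller size. Its levels were 8.65, 8.75 and 8.75 in curdlan 4 h arrays, 8.98, 9.03 and 9.11 in curdlan 2 h arrays, and 9.28, 9.24 and 9.19 in nontreated arrays. The 3 groups did not overlap. The difference from nontreated cells was −0.52 ± 0.05 at 4 h (limma adjusted p = 1.69e-06) and −0.20 ± 0.05 at 2 h (limma adjusted p = 0.0122), both under the fold threshold. FK506 differences for Itpr3 were 0.15 at 4 h (95% interval 0.04 to 0.26) and 0.06 at 2 h (95% interval −0.05 to 0.16), with limma adjusted p values of 0.0775 and 0.543. Across the 15 arrays Itpr3 followed Itpr2 with r 0.96. The genes most like Itpr2 were Dock8 (r 0.997), Prkacb, a catalytic subunit of protein kinase A (0.997), and Rfc2, a subunit of the clamp loader of DNA replication (0.995). Their 4 h differences between curdlan and nontreated cells were −0.67, −0.79 and −0.66.

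The store sensors and the entry channel had differences under 1.5-fold in every comparison. Stim2, the sensor that responds to small losses of store calcium, had levels of 10.03, 10.00 and 10.00 with curdlan at 4 h, 9.97, 9.99 and 9.93 with curdlan at 2 h, and 9.70, 9.73 and 9.71 in nontreated cells. All curdlan arrays lay above all nontreated arrays. The difference was 0.30 ± 0.04 at 4 h (limma adjusted p = 1.17e-05) and 0.24 ± 0.04 at 2 h (limma adjusted p = 0.000149). With curdlan and FK506, Stim2 stood at 9.99 on all 3 arrays at 4 h and at 10.09, 10.08 and 10.04 at 2 h. The FK506 difference was −0.02 (95% interval −0.10 to 0.05) at 4 h and 0.11 (95% interval 0.03 to 0.18, limma adjusted p = 0.0883) at 2 h.

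Stim1, the main sensor of store-operated entry, overlapped nontreated cells in every group but curdlan with FK506 at 4 h. Its curdlan levels were 8.87, 9.0 and 8.91 at 4 h and 9.10, 9.13 and 9.05 at 2 h, against 8.86, 9.12 and 9.01 in nontreated cells. Nontreated arrays spanned almost the whole range of the curdlan arrays, with the lowest nontreated value in replicate 1. The differences of −0.07 at 4 h (95% interval −0.20 to 0.06) and 0.10 at 2 h (95% interval −0.03 to 0.23) did not pass the test, and the sign of the 4 h value turned when array medians were set equal. FK506 differences of Stim1 were −0.09 (95% interval −0.22 to 0.04) at 4 h and 0.00 (95% interval −0.13 to 0.13) at 2 h. Curdlan 4 h arrays lay below curdlan 2 h arrays, with a difference of −0.17 (95% interval −0.29 to −0.04, limma adjusted p = 0.0587). With curdlan and FK506 at 4 h, levels were 8.85, 8.81 and 8.85, below all arrays of the other groups. Between the 2 FK506 groups, 4 h differed from 2 h by −0.26 ± 0.06 (limma adjusted p = 0.00796).

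Orai1, the pore of the entry channel, had lower levels with curdlan. They were 10.03, 10.04 and 10.01 at 4 h and 10.18, 10.16 and 10.27 at 2 h, against 10.35, 10.35 and 10.31 in nontreated cells. The groups did not overlap, and their differences from nontreated cells were −0.31 ± 0.04 at 4 h (limma adjusted p = 3.3e-05) and −0.13 ± 0.04 at 2 h (limma adjusted p = 0.0335). The FK506 difference for Orai1 was −0.07 (95% interval −0.16 to 0.02) at 4 h and −0.03 (95% interval −0.12 to 0.06) at 2 h. Its paralogues Orai2 and Orai3 were measured as well. Orai2 had 2 probe sets, and the values given are those of the brighter. Whether the other probe set of Orai2 differed in the same direction is not shown here. Orai2 differed from nontreated cells by 0.45 ± 0.09 at 4 h (limma adjusted p = 0.0012), in the direction opposite to Orai1, and Orai3 by −0.20 ± 0.07 (limma adjusted p = 0.0315), both under the fold threshold.

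Atp2b1, the pump that moves calcium out of the cell, had the largest FK506 difference in the set after Itpkb. Its levels at 2 h were 10.97, 11.04 and 11.05 with curdlan and FK506, against 11.51, 11.51 and 11.42 with curdlan alone. At 4 h they were 10.80, 10.79 and 10.76 with curdlan and FK506, against 11.10, 11.13 and 11.19 with curdlan alone. The groups were separate at both times. The FK506 difference was −0.47 ± 0.05 at 2 h (limma adjusted p = 1.4e-05) and −0.36 ± 0.05 at 4 h (limma adjusted p = 0.000115), both under the 1.5-fold threshold, and the effects at the 2 times differed by 0.11 (95% interval −0.03 to 0.25). Nontreated arrays had 11.11, 11.21 and 11.17, so curdlan at 2 h lay above them by 0.32 ± 0.05 (limma adjusted p = 0.000135) and curdlan at 4 h overlapped them (−0.02, 95% interval −0.12 to 0.07). Curdlan with FK506 differed from nontreated cells by −0.38 ± 0.05 at 4 h (limma adjusted p = 2e-05) and by −0.15 ± 0.05 at 2 h (limma adjusted p = 0.042). The 2 h value was −0.04 with array medians set equal (adjusted p = 0.814), and its adjusted p stayed under 0.05 in 10 of 26 alternatives.

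Atp2a2, the pump that refills the store, differed with FK506 at 4 h. Its levels were 12.16, 12.19 and 12.15 with curdlan and FK506 at 4 h, against 12.37, 12.38 and 12.40 with curdlan alone, and at 2 h 12.32, 12.31 and 12.32, against 12.33, 12.29 and 12.28. The 4 h groups were separate and the 2 h groups overlapped. The FK506 difference was −0.22 ± 0.04 at 4 h (limma adjusted p = 0.00208) and 0.02 (95% interval −0.07 to 0.10) at 2 h, and the 4 h effect minus the 2 h effect was −0.24 ± 0.06 (limma adjusted p = 0.0309, under 0.05 in 10 of 26 alternatives). Nontreated arrays had 12.11, 12.25 and 12.21, and the curdlan 4 h level differed from them by 0.19 ± 0.04 (limma adjusted p = 0.00157). With curdlan and FK506 at 4 h that difference was −0.03 (95% interval −0.11 to 0.06). All of these values were under 1.5-fold. Of the 9 genes, 0 were called in the FK506 comparison at 4 h (1.53% of all genes called lower, 0.211% higher), and 5 of the 9 had an unadjusted limma p under 0.05, as had 20.1% of all genes.

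Plcg2, the enzyme that makes IP3 below dectin-1, had differences under 1.5-fold in every comparison. It stood at 10.91, 10.91 and 10.89 with curdlan and FK506 at 4 h, against 10.75, 10.81 and 10.76 with curdlan, and at 10.99, 10.99 and 10.93 with curdlan and FK506 at 2 h, against 10.94, 10.90 and 10.73 with curdlan. Nontreated cells had 10.99, 10.94 and 10.92. Curdlan at 4 h differed from nontreated cells by −0.17 ± 0.05 (limma adjusted p = 0.0168), and curdlan at 2 h by −0.09 (95% interval −0.20 to 0.02, limma adjusted p = 0.284). The FK506 difference was 0.13 (95% interval 0.02 to 0.24, limma adjusted p = 0.161) at 4 h and 0.11 (limma adjusted p = 0.253) at 2 h. Plcg1, its relative best known from T cells, differed by −0.14 ± 0.04 between curdlan 4 h and nontreated cells (limma adjusted p = 0.0181).

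Most of the differences in this set were small against the fold threshold. At an adjusted p under 0.05 with no fold threshold, 3 of the 9 genes were higher and 3 lower with curdlan at 2 h (7.19% and 12.9% of all genes), and 2 were higher and 5 lower at 4 h (14.1% and 23.2% of all genes). Curdlan at 4 h against 2 h had 0 higher and 5 lower (12.4% and 13.7% of all genes). With FK506, 0 were higher and 2 lower at 2 h (4.48% and 3.09% of all genes) and 0 were higher and 2 lower at 4 h (5.64% and 6.03% of all genes), Atp2b1 at both times, Itpkb at 2 h and Atp2a2 at 4 h. For curdlan with FK506 against nontreated cells the counts were 2 higher and 4 lower at 2 h (7.62% and 10.0% of all genes), and 1 higher and 5 lower at 4 h (10.3% and 15.7% of all genes). With the fold threshold, 0 of 9 were called at 2 h (1.81% of all genes higher and 0.537% lower), and 7 of the 9 had an unadjusted limma p under 0.05, as had 31.5% of all genes. Between the FK506 groups, 4 h against 2 h, 0 were higher and 6 lower (5.34% and 8.64% of all genes), and with the fold threshold 0 were called (0.903% higher and 0.782% lower over all genes), and 7 of the 9 had an unadjusted limma p under 0.05, as had 21.5% of all genes. For the difference of the FK506 effects, 1 was higher and 1 lower (1.39% and 2.98% of all genes), and the 1 lower did not pass the fold threshold (1.06% of all genes did).

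**Figure D2:**
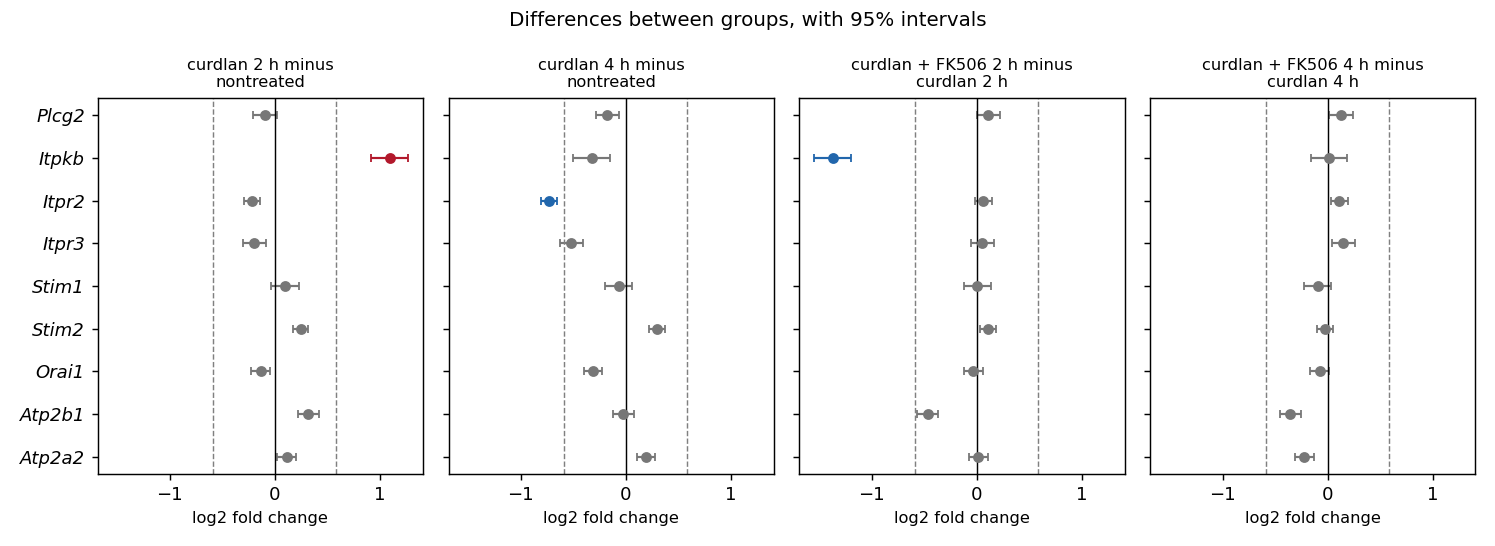
Log2 fold change of the 9 genes (rows) in 4 comparisons (panels), each point with its 95% interval from limma. Red and blue mark genes called higher and lower, grey genes not called, and dashed lines mark 1.5-fold; Itpkb passed at 2 h (1.09 with curdlan, −1.37 with FK506) and Itpr2 at 4 h (−0.73 with curdlan).

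The lowest limma array weights, 0.119 for replicate 3 of curdlan 2 h and 0.0781 for replicate 1 of the nontreated cells, set these arrays apart (0.707 to 6.87 for the rest). The iterative estimate of these weights stopped before it reached its tolerance, and limma's gene-by-gene estimate gave 0.136 and 0.0888 for the same arrays and 0.996 to 2.27 for the rest. Without both, the Itpkb differences at 2 h were 1.09 (curdlan against nontreated) and −1.42 (FK506 against curdlan), and that of Itpr2 at 4 h was −0.73. Some markers of another cell type differed with FK506 and others did not pass the test. The 4 macrophage markers measured (Adgre1, Mertk, Fcgr1 and Cd14), all above the lower quartile of gene means, had a mean level of 8.60 to 8.66 with curdlan and FK506 and 9.39 to 9.47 with curdlan at 4 h. At 2 h it was 8.89 to 8.96 with curdlan and FK506 and 9.33 to 9.51 with curdlan, and 8.98 to 9.30 in nontreated cells. Of these, Mertk fell by 2.20 ± 0.09 with FK506 at 4 h and by 1.53 ± 0.09 at 2 h, and Cd14 fell by 0.90 ± 0.14 at 4 h. At 2 h the mean level of Cd14 was 6.46 with curdlan and FK506 and 7.01 with curdlan. Cd14 itself rose with curdlan at 2 h, by 0.71 ± 0.14 relative to nontreated cells (limma adjusted p = 0.00227). The differences of Adgre1 were −0.06 at 4 h (95% interval −0.17 to 0.05) and −0.02 at 2 h (95% interval −0.13 to 0.09), and those of Fcgr1 were −0.06 (95% interval −0.15 to 0.03) and −0.04 (95% interval −0.12 to 0.05). The part of these markers in the FK506 differences of Itpkb, Atp2b1 and Atp2a2 was not tested, and in bulk RNA a lower share of some cells and less RNA per cell cannot be told apart.

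Around these 9 genes, 101 of 110 listed genes of IP3 and calcium handling were measured, in 8 groups that do not include them. With curdlan at 2 h, 4 of the 101 rose and 1 fell (2.2% and 1.4% of all genes). At 4 h, 6 rose and 5 fell (5.05% and 4.15% of all genes). With FK506, 0 rose and 2 fell at 2 h (0.361% and 0.762% of all genes), and 0 rose and 3 fell at 4 h (0.211% and 1.53% of all genes).

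Other enzymes of IP3 turnover were also called. Itpkc, a second IP3 kinase, had levels of 7.85, 7.95 and 7.82 with curdlan at 4 h and 8.14, 8.02 and 7.78 with curdlan at 2 h, against 6.97, 7.01 and 7.0 in nontreated cells. It rose by 0.88 ± 0.07 at 4 h (limma adjusted p = 3.14e-07) and by 0.99 ± 0.07 at 2 h (limma adjusted p = 2.69e-07). With FK506 the Itpkc difference was −0.16 at 4 h (95% interval −0.32 to −0.0017, limma adjusted p = 0.242) and −0.17 at 2 h (95% interval −0.32 to −0.01, limma adjusted p = 0.226). Relative to nontreated cells, Itpkc rose by 0.72 with curdlan and FK506 at 4 h and by 0.82 at 2 h.

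Inpp5b, a 5-phosphatase of inositol phosphates and lipids, was the gene of IP3 turnover called with FK506 besides Itpkb. Its levels at 2 h were 10.16, 10.16 and 10.14 with curdlan and FK506, against 10.99, 10.94 and 10.94 with curdlan, and at 4 h 10.17, 10.15 and 10.20, against 10.82, 10.87 and 10.85. All FK506 arrays also lay below the nontreated arrays, at 10.52, 10.53 and 10.57. Inpp5b fell by 0.80 ± 0.04 at 2 h (limma adjusted p = 8.16e-09) and by 0.67 ± 0.04 at 4 h (limma adjusted p = 3.23e-08). Inpp5a, which removes a phosphate from IP3, rose with curdlan at 2 h by 0.72 ± 0.06 (limma adjusted p = 9.77e-07) and differed with FK506 at 4 h by −0.58 ± 0.06 (limma adjusted p = 1.92e-05), just under the fold threshold. Inpp5d, the lipid phosphatase SHIP1, ran the other way. It fell with curdlan at 4 h by 0.88 ± 0.04 (limma adjusted p = 2.08e-10), and with FK506 at 4 h it differed by 0.52 ± 0.04 (limma adjusted p = 3.14e-07), under the fold threshold.

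**Figure D3:**
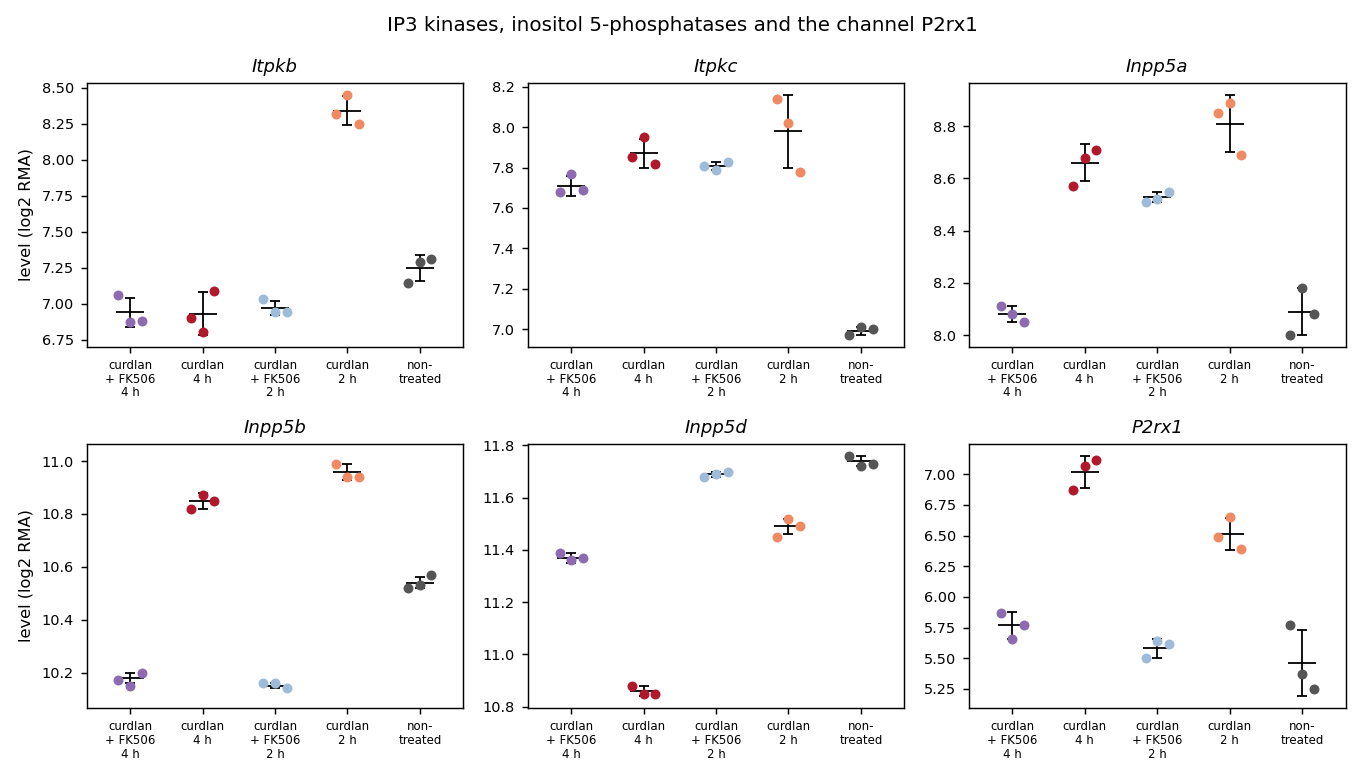
Levels (log2 RMA, vertical axis, scaled to each gene) of the IP3 kinases Itpkb and Itpkc, the 5-phosphatases Inpp5a, Inpp5b and Inpp5d, and the ATP-gated channel P2rx1 on every array. Points are arrays, bars with whiskers the mean and SD of 3 arrays; with curdlan and FK506 at 2 h, Inpp5b averaged 10.15, below nontreated cells, while Itpkc at 7.81 stayed above them.

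Among channels outside the store pathway, P2rx1, an ATP-gated cation channel, rose with curdlan and fell with FK506. Its levels at 4 h were 5.87, 5.66 and 5.77 with curdlan and FK506, against 6.87, 7.07 and 7.12 with curdlan, and nontreated cells had 5.77, 5.37 and 5.25. The FK506 arrays at 4 h overlapped the nontreated arrays and not the curdlan arrays. The nontreated mean of P2rx1, 5.46, lay near the lower quartile of gene means (5.28), so its fold changes start from a dim level. P2rx1 rose by 1.56 ± 0.12 with curdlan at 4 h (limma adjusted p = 1.32e-07) and by 1.05 ± 0.12 at 2 h (limma adjusted p = 1.74e-05), and with FK506 it fell by 1.26 ± 0.12 at 4 h (limma adjusted p = 7.13e-06). At 2 h with FK506 it fell by 0.93 ± 0.12 (limma adjusted p = 0.000167). P2rx7, another ATP-gated channel, fell by 0.62 ± 0.05 with curdlan at 2 h. Tpcn1, a channel of endosomes and lysosomes, fell by 1.03 ± 0.04 with curdlan at 4 h, and Trpm2, a calcium-permeable channel opened by ADP-ribose, by 0.64 ± 0.09. Nontreated levels were 7.03, 6.79 and 6.88 for Trpm2 and 10.30, 10.21 and 10.18 for P2rx7. Each was highest in replicate 1, the array of lowest weight (0.0781). The Trpm2 and P2rx7 differences lay near the fold threshold (log2 0.585), and their calls without that array were not tested. Trpm4, a channel opened by calcium that carries monovalent cations, rose by 0.76 ± 0.06 at 4 h.

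Micu3, which regulates the mitochondrial calcium uniporter, rose by 1.39 ± 0.17 with curdlan at 4 h (limma adjusted p = 1.69e-05) and by 0.78 ± 0.17 at 2 h, and fell by 0.60 ± 0.17 with FK506 at 4 h (limma adjusted p = 0.0379). Its levels with curdlan at 4 h were 7.72, 7.67 and 7.71, against 5.91, 6.40 and 6.63 in nontreated cells. The lowest nontreated level was in replicate 1, the array of lowest weight (0.0781), and the Micu3 calls against nontreated cells without that array were not tested. Slc8a2, a sodium-calcium exchanger, rose by 0.69 ± 0.12 at 4 h. Camkk2, which activates other calmodulin-dependent kinases, rose by 0.73 ± 0.04 at 4 h, and Camk2g, a calmodulin-dependent kinase subunit, fell by 0.74 ± 0.07. Itpripl1, a gene named for likeness to an IP3 receptor-interacting protein, fell by 0.88 ± 0.04 at 4 h. Among 11 further genes of store-operated entry and 10 calcium-binding proteins of the endoplasmic reticulum, 0 were called in each of the 4 comparisons. With an unadjusted limma p under 0.05, the store-operated entry genes numbered 6 with curdlan at 2 h, 8 with curdlan at 4 h, 1 with FK506 at 2 h and 2 with FK506 at 4 h. The calcium-binding proteins numbered 1, 5, 0 and 0 in the same comparisons, in which 28.1%, 48.4%, 19.6% and 20.1% of all genes had such a p.

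Set against nontreated cells, curdlan with FK506 left 5 of the 101 listed genes higher and 4 lower at 4 h (2.95% and 2.43% of all genes), and 2 higher and 0 lower at 2 h (1.81% and 0.537% of all genes). The 2 higher at 2 h were Itpkc (0.82) and Micu3 (0.88). At 4 h the higher genes were Trpm4 (0.88), Micu3 (0.79), Itpkc (0.72), Camkk2 (0.62) and P2rx4, another ATP-gated channel (0.60). The lower genes were Tpcn1 (−0.83), the calmodulin-dependent kinase Camk1d (−0.77), Itpripl1 (−0.64) and P2rx7 (−0.61). Tpcn1 (−0.64) and Camk1d (−0.73) were also the 2 genes called between the FK506 groups, 4 h against 2 h. Between curdlan at 4 h and at 2 h, Trpm4 (0.65) and Micu3 (0.61) were called higher, and Tpcn1 (−0.66) and Inpp5d (−0.63) lower. Micu3 levels with curdlan at 2 h were 7.24, 7.33 and 6.72, the lowest in replicate 3, an array of low weight (0.119). This Micu3 difference lay near the fold threshold (log2 0.585), and its call without that array was not tested.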

How the data were processed

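RNA of 15 D1 samples was hybridised to Affymetrix Mouse Gene 1.0 ST arrays. The values were deposited by the authors as log2 RMA intensities, 1 per probe set, made with the affy package in R 2.15.2 (submitters' processing notes); the genome build is not given in the sources used here. RMA includes quantile normalization, which largely removes a change in the level of every gene together, and array medians lay between 6.45 and 6.57. The platform annotation gave 1 gene symbol for 21640 of the 34760 probe sets, several for 1321 and none for 11799. The probe set with the highest mean was used per gene (954 genes had several), which left 19937 genes. Of their symbols, 19918 are in the mouse reference table and 0 needed an update. No filter on low values was applied, and 0 pairs of arrays were identical.

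The 5 group means were estimated jointly over the 15 arrays (limma 3.58.1, R 4.3.3; 10 residual degrees of freedom, empirical Bayes moderation, two-sided tests, Benjamini-Hochberg adjustment over all genes within a comparison). Log2 fold changes had a median standard error of 0.0768, and the number of arrays limits the precision. In data simulated for curdlan 2 h against nontreated cells over 19937 genes, 98% to 100% of genes changed by log2 1 or 2 were recovered, with 1 false call. The simulation held no smaller changes and no deviations of whole arrays, so it does not cover the smaller differences of most members. Promoter windows and motifs were read from RefSeq tables (GRCm38.p6). All members are named in the comparisons, with called genes of the 8 other lists (at most 6 per list and comparison) and the 3 genes most correlated with each called member. The members and lists were chosen with earlier results of these data known. Alternatives were other normalizations, filters, probe-set rules, variance models, array weights, a covariate, the replicate number as a block, no fold threshold and leaving out arrays.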

Additional observations from a re-analysis of the deposited data

Results flagged for a closer look

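The response of Itpkb differed between the times by a test of the difference itself. The FK506 effect at 4 h minus that at 2 h was 1.38 on the log2 scale (SE 0.11, limma adjusted p = 1.61e-05), from 0.01 at 4 h and −1.37 at 2 h. The curdlan response at 4 h minus that at 2 h was −1.42 (SE 0.08, limma adjusted p = 2.69e-08), from −0.32 at 4 h and 1.09 at 2 h against the same nontreated arrays. The curdlan 2 h arrays enter both values.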

How the results depend on the processing

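The 6 calls among the members (4 of Itpkb, 2 of Itpr2) were recomputed under 26 alternatives other than dropping the fold threshold. Of these 156 values, 155 stayed called in the same direction and 1 did not. That one was Itpr2 in curdlan with FK506 at 4 h against nontreated cells, −0.543 with array medians set equal, which left 0 members called lower there. In 1950 values of the 75 uncalled results, 0 became called. The sign differed in 35 of them, from 15 results near 0 (−0.068 to 0.102 as reported, −0.084 to 0.085 with the other sign), and 0 of these values had an adjusted p under 0.05. Of 36 uncalled results with an adjusted p under 0.05, 18 kept it in all 26 alternatives and 18 did not. The fewest were 6 of 26 for Atp2a2 and 10 of 26 for Atp2b1, both for curdlan with FK506 at 2 h against nontreated cells, 10 of 26 for the difference of the FK506 effects of Atp2a2, and 18 of 26 for Orai1 with curdlan at 2 h. Leaving out each array in turn ended no call, and the Itpkb difference between curdlan 2 h and nontreated cells stayed between 1.04 and 1.14. Without a fold threshold, the members called higher and lower numbered 3 and 3 with curdlan at 2 h, and 2 and 5 at 4 h, against nontreated cells. For curdlan with FK506 against nontreated cells they numbered 2 and 4 at 2 h, and 1 and 5 at 4 h. The members called lower were then 2 in each FK506 comparison with curdlan, 5 for curdlan 4 h against 2 h, 6 between the FK506 groups, and 1 for the difference of the FK506 effects. Over all genes, equal array medians moved the calls, higher and lower, of curdlan with FK506 against nontreated cells at 4 h to 710 and 342, against 589 and 484, those of FK506 at 2 h to 100 and 125, against 72 and 152, those of FK506 at 4 h to 27 and 332, against 42 and 306, and those of curdlan with FK506 at 2 h against nontreated cells to 483 and 47, against 361 and 107. For the difference of the FK506 effects they were 20 and 276, against 34 and 212. The covariate of probe sets without a symbol gave 807 and 1250 for curdlan at 4 h against nontreated cells (1007 and 828 as reported), 471 and 524 for curdlan 4 h against 2 h (556 and 260), 291 and 200 (361 and 107) and 487 and 776 (589 and 484) for curdlan with FK506 at 2 h and 4 h against nontreated cells, and 65 and 188 for the difference of the FK506 effects. Testing all 34760 probe sets gave 665 and 423 (439 and 279 as reported) with curdlan at 2 h, 2377 and 1087 at 4 h, 1362 and 349 for 4 h against 2 h, 138 and 180 (72 and 152) with FK506 at 2 h, and 748 and 175, and 1165 and 595, for curdlan with FK506 at 2 h and 4 h against nontreated cells. Dim genes would show a small change less readily than bright ones. All members lay above the lower quartile of gene means, and the part of signal level in the size of their differences was not tested.

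Same-numbered arrays did not as a rule deviate together, so the numbers were not taken as pairs. Of 30 pairs of same-numbered arrays from different groups, 9 had a correlation over 0.1 (range −0.727 to 0.584). Both ends of this range came from curdlan 2 h against nontreated cells, the groups that hold the low-weight arrays. The part of those arrays in these correlations was not tested. With the replicate number as a block, no member call changed, with adjusted p values for Itpkb of 3.9e-06 (curdlan 2 h against nontreated cells) and 2.36e-06 (FK506 against curdlan at 2 h).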
